A study of Mus musculus with 6 samples.

Results

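The genes described here make, move and sense cholesterol. They were chosen by name as a list of 33 genes, and every probe set carrying 1 of their symbols was taken from the array annotation. Probe sets were found for 30 of the 33, 63 in all, out of 18193 named genes and 45037 probe sets. Acat2, Nr1h2 and Soat1 had no probe set named for them in the annotation used here. Their expression is not analysed here, and they enter only the promoter counts. The arrays, Affymetrix Mouse Genome 430 2.0, each measured RNA from a microdissection of the arcuate hypothalamus of mice aged 2 weeks. There were 3 control samples (genotype Ctrl) and 3 POMCDicerKO samples, which lacked Dicer, the enzyme that matures microRNAs, in their POMC-expressing cells. The strain of both groups was a mixture of C57Bl/6J, FVB/N and 129. Each title names a mouse, and the sources used here do not state the control alleles, the Cre driver or any pooling. The comparison asked how the expression of these genes differed when Dicer was missing from a small population of cells in the dissected tissue.

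Brain cholesterol is made almost wholly within the brain, because lipoproteins of the blood do not cross the blood-brain barrier. Demand is high in the first weeks after birth, since oligodendrocytes build myelin, a membrane rich in cholesterol, and astrocytes supply neurons with cholesterol on particles of apolipoprotein E. Synthesis runs from acetyl-CoA through mevalonate and the isoprenoids to squalene, the last open-chain intermediate, which is closed to lanosterol and trimmed to cholesterol. When sterols in the endoplasmic reticulum are low, Scap carries the transcription factors SREBP1 and SREBP2 to the Golgi, where they are cut free and switch on nearly every enzyme of the pathway together. When sterols are high, Insig proteins hold Scap back, and oxysterols activate the LXR receptors, which switch on the exporters Abca1 and Abcg1.

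SREBP2 acts on its target promoters beside the factors NF-Y and Sp1, and 4 promoters are shown because their genes carry the results below. Of the synthesis genes with a promoter sequence, each at its brightest probe set, Idi1, Msmo1 and Hmgcs1 differed most between POMCDicerKO arrays. Sc5d had the smallest p-value. Each line gives the 200 bases before the transcription start, 5′ to 3′ on the strand of the gene, from the RefSeq promoter table (build GRCm38.p6). Capitals mark matches, on either strand, to TCACNCCAC (a sterol regulatory element), CCAAT (bound by NF-Y) and GGGCGG (bound by Sp1). The stretches are chr13:8885406-8885605 on the + strand for Idi1, chr8:64733579-64733778 on the - strand for Msmo1, chr13:119690151-119690350 on the + strand for Hmgcs1 and chr9:42264301-42264500 on the - strand for Sc5d.
Idi1: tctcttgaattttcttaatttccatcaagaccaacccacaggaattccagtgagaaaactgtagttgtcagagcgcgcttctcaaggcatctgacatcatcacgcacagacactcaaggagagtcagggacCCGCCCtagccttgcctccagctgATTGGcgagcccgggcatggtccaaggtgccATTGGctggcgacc
Msmo1: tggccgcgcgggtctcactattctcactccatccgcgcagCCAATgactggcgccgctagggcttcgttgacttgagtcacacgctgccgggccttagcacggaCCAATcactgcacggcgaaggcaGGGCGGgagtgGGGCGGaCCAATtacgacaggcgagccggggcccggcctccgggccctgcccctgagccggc
Hmgcs1: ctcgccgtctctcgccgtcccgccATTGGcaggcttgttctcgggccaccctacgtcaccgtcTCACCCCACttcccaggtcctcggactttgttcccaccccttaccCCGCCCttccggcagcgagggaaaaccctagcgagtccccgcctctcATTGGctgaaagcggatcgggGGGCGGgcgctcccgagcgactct
Sc5d: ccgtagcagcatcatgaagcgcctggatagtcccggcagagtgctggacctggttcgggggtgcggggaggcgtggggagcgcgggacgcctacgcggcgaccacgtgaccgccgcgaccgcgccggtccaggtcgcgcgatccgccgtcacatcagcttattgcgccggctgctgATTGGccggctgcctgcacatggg

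These stretches held the NF-Y letters 2 times in Idi1, 3 times in Msmo1, 2 times in Hmgcs1 and 1 time in Sc5d, and no match overlapped another motif. The sterol regulatory element was matched in Hmgcs1, starting 137 bases before the transcription start. Counts over the table used whole windows of 300 bases (250 bases before a start and 50 after it), and a promoter was listed for 27 of the 33 genes. The table holds 32851 windows for 27025 genes, and a gene was counted when any of its windows matched. CCAAT was found for 14 of 15 synthesis genes, all but Acat2, and for 7 of the 12 other members, against 41.1% of all 27025 genes in the table. GGGCGG was found for 14 of 15 synthesis genes, all but Pmvk, and for 9 of the 12 others, against 38.2% of all genes. TCACNCCAC was found for 1 member, Hmgcs1, against 1.44% of all genes. The LXR direct repeat (AGGTCA and again AGGTCA, spaced by 4 bases) was found for 0 members and 4 of all genes. These windows were not matched for base composition or for their number per gene. A match is not a measured binding site, and a missing match says only that these letters are not in the windows of the gene.

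Arrays of the same group correlated at 0.995 to 0.997 (Pearson) and arrays of different groups at 0.994 to 0.997, over all probe sets, which are not independent replicates. Probe sets had a median residual SD of 0.105 (log2), and the number of arrays limits the precision. Dicer1 at probe set 1460571_at read 9.22, 9.18 and 9.24 in controls and 9.18, 9.19 and 9.33 in POMCDicerKO. Cells expressing Pomc are a small part of the tissue, so these values do not check the labels. The 5 measured arcuate markers (Pomc, Npy, Cartpt, Tac2 and Ghrh) all had a mean of at least 6. Controls 1 and 2 stood apart in meningeal genes, whose 8 markers had a median of 0.39 and 0.49 there relative to the control mean, -0.88 in control 3 and -0.94, -1.35 and -1.54 in POMCDicerKO. The 3' minus 5' signal of the Gapdh control spots, a measure of RNA length, was 0.041 to 0.064 in controls and -0.022 to -0.011 in POMCDicerKO on the log2 scale, and for the actin spots 1.17 to 1.31 and 1.12 to 1.19. Their part in the differences between the groups was not tested.

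Of the 63 member probe sets, 0 passed limma's test adjusted over all probe sets, where 0% of all 45037 passed and each of the 63 had an adjusted p of 1. At an unadjusted p under 0.05 there was 1 of 63, against 2.44% of all probe sets, and the groups did not overlap at 2 of 63, against 6.36%. With each gene read at its brightest probe set by the mean of the 6 arrays, 1 of 30 genes, Sc5d, had an unadjusted p under 0.05, against 2.41% of all genes. Sc5d was also the only member of the 30 without overlap between the groups, against 6.44%. Both shares are near the background. On average 21 of 30 genes read higher in POMCDicerKO, against 44.9% of all genes, and the median log2 fold change (POMCDicerKO minus control) was 0.048, against -0.0099 over all genes. Of the 17 measured synthesis enzymes 16 read higher, with a median of 0.086, a count that fell to 7 without POMCDicerKO replicate 1. That replicate was the highest of POMCDicerKO for all 17, so leaving it out had to lower their fold changes. Of the 6 transport genes 4 read higher, with a median of 0.070, and of the 6 regulators 1 read higher, with a median of -0.020. Differences between the roles were not tested.

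**Figure D1:**
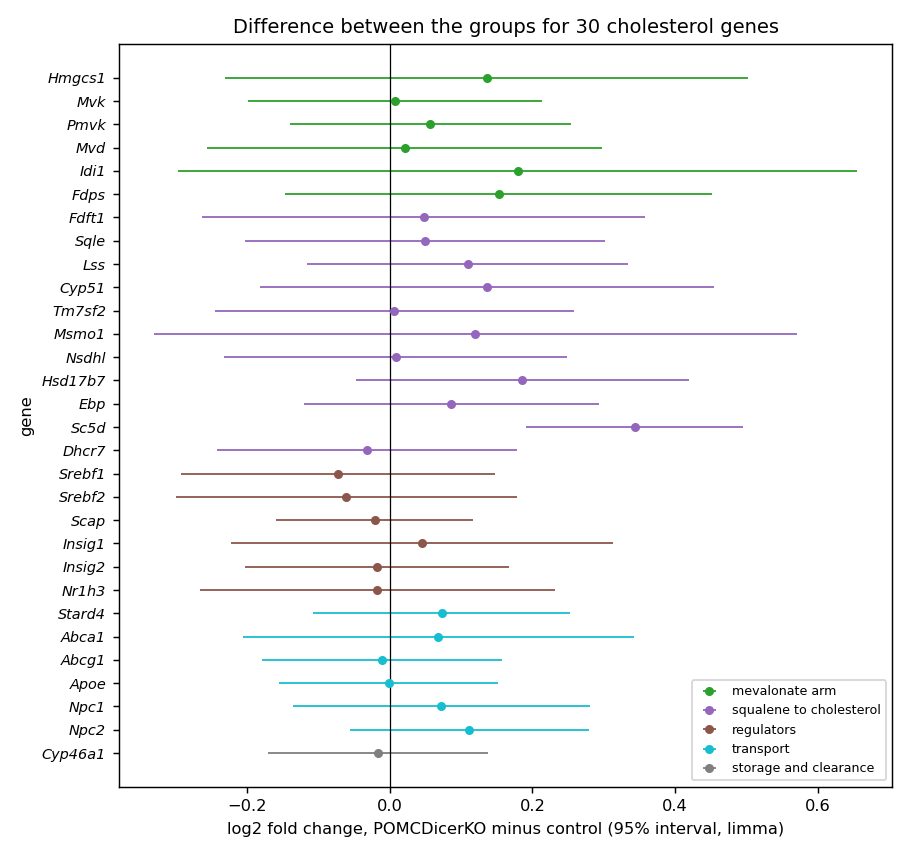
Log2 fold change of each of the 30 genes (POMCDicerKO minus control, 3 arrays each) at the brightest probe set, with limma's 95% interval as a bar and colour for the role of the gene. The interval of Sc5d, from 0.19 to 0.50, lies off 0, and the other 29 include 0.

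The first enzymes of the pathway, which turn acetyl-CoA into the isoprenoid farnesyl diphosphate, had a median log2 fold change of 0.096, and all 6 measured members read higher on average. Idi1, the isomerase of isopentenyl diphosphate, differed most. It read 9.66, 9.49 and 9.51 in controls and 10.19, 9.76 and 9.26 in POMCDicerKO at 1451122_at. POMCDicerKO arrays 1 and 2 were above all controls and array 3 was below all of them, so the groups overlapped. The log2 fold change of Idi1 was 0.18 ± 0.20 (SE, 95% interval -0.30 to 0.66, exact permutation p = 0.6). Its other probe set, 1423804_a_at, gave 0.10, and there array 2 (8.76) lay just below control 1 (8.77). Fdps, which makes farnesyl diphosphate, read 9.17, 9.06 and 9.14 in controls and 9.53, 9.31 and 8.99 in POMCDicerKO. Its arrays lay as those of Idi1 did at 1451122_at, with 1 and 2 above and 3 below every control. The log2 fold change of Fdps was 0.15 ± 0.13 (SE, exact permutation p = 0.5).

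Hmgcs1, the synthase of hydroxymethylglutaryl-CoA, read 12.00, 11.76 and 11.66 in controls and 12.23, 11.97 and 11.62 in POMCDicerKO at 1433443_a_at. Control 1 lay above POMCDicerKO array 2. Averages were 11.81 ± 0.18 (SD, n = 3) and 11.94 ± 0.31 (SD, n = 3), a log2 fold change of 0.14 ± 0.16 (SE). The other 3 probe sets of Hmgcs1 with a mean of at least 6 gave 0.11, 0.15 and 0.21, and in all 4 array 1 was the highest and array 3 the lowest of the POMCDicerKO arrays. These probe sets share their arrays, so they do not count as replicates of each other. The mevalonate kinase Mvk, the phosphomevalonate kinase Pmvk and the decarboxylase Mvd, which follow Hmgcs1 in the mevalonate arm, were at 0.0071, 0.057 and 0.021, each less than its standard error of 0.089, 0.085 and 0.12.

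Squalene and sterol enzymes had a median log2 fold change of 0.086, with 10 of 11 higher and Dhcr7, the last reductase, lower at -0.032. Msmo1, which removes methyl groups from the sterol ring, read 9.92, 9.79 and 9.75 in controls and 10.28, 10.09 and 9.45 in POMCDicerKO. Arrays 1 and 2 of POMCDicerKO were again above all controls and array 3 below all of them. The difference of Msmo1 was 0.12 ± 0.19 (SE). Cyp51, the lanosterol demethylase, read 9.07, 8.97 and 9.09 in controls and 9.44, 9.23 and 8.87 in POMCDicerKO, with the same placing of the 3 arrays and a difference of 0.14 ± 0.14 (SE). Hsd17b7, a sterol ketoreductase, differed most in this arm after Sc5d. Its values at 1457248_x_at were 7.96, 7.75 and 8.02 in controls and 8.25, 7.97 and 8.07 in POMCDicerKO, where array 2 lay among the controls. The log2 fold change of Hsd17b7 was 0.19 ± 0.10 (SE, exact permutation p = 0.2), and its other 2 probe sets with a mean of at least 6 gave 0.066 and 0.097.

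The remaining enzymes of this arm differed by less. Lanosterol synthase (Lss) was at 0.11, the sterol isomerase Ebp at 0.086, the squalene epoxidase Sqle at 0.049 and the squalene synthase Fdft1 at 0.047. The dehydrogenase Nsdhl and the reductase Tm7sf2 were at 0.0085 and 0.0064. For Lss, array 1 of POMCDicerKO read 8.59 and the other 5 arrays lay between 8.21 and 8.33. Nsdhl had the tightest controls of these genes, 8.56, 8.59 and 8.54, while its POMCDicerKO arrays read 8.76, 8.61 and 8.35. Its mean was therefore nearly equal between the groups (8.56 and 8.57), although its SD was 0.025 in controls and 0.20 in POMCDicerKO.

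**Figure D2:**
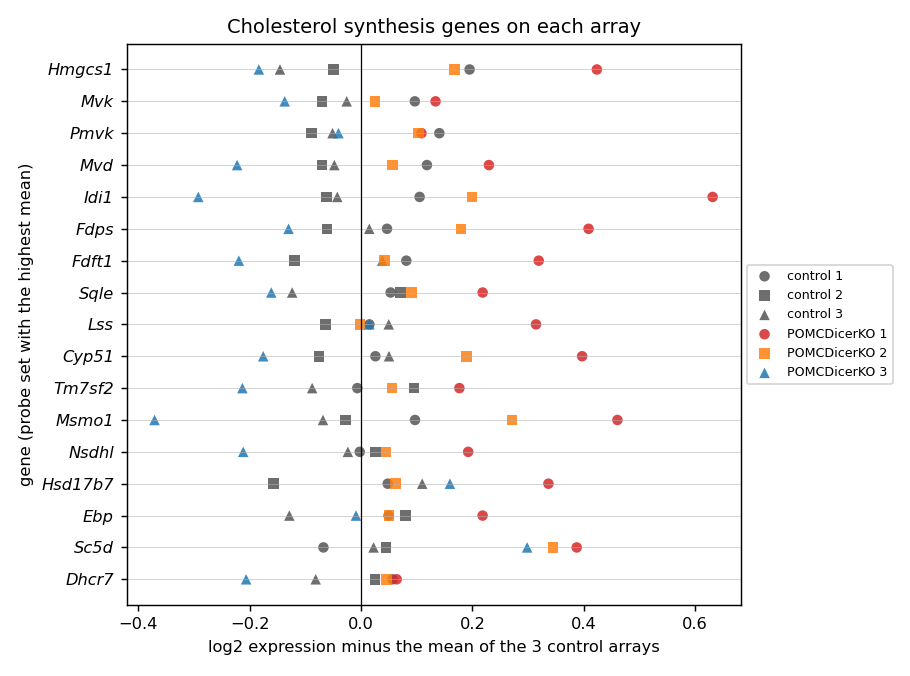
Log2 expression of the 17 synthesis genes on each array, relative to the mean of the 3 control arrays (x axis, log2 units), with a marker for each array. POMCDicerKO array 1 lies to the right of all controls for 16 genes and array 3 to the left of all controls for 12. The 3 POMCDicerKO arrays lie together for Sc5d at the probe set shown, 1451457_at, but not at its probe set 1434520_at, which is not shown.

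Sc5d, the desaturase that puts the last double bond into the sterol ring before Dhcr7 acts, differed most of the 30 genes, and its probe sets opposed each other. At 1451457_at it read 8.52, 8.63 and 8.61 in controls and 8.98, 8.93 and 8.89 in POMCDicerKO. All POMCDicerKO arrays were above all controls. Averages were 8.59 ± 0.060 (SD, n = 3) and 8.93 ± 0.045 (SD, n = 3), a log2 fold change of 0.34 ± 0.065 (SE), which is 1.27-fold. Its unadjusted limma p was 0.000884 and its adjusted p over all probe sets was 1. The exact permutation p was 0.1, the smallest that 3 against 3 arrays can give.

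The second Sc5d probe set with a clear signal, 1434520_at, read 9.24, 8.48 and 9.20 in controls and 8.96, 8.23 and 7.95 in POMCDicerKO. Control 2 stood apart from the other controls and lay below POMCDicerKO array 1. The log2 fold change was -0.59 ± 0.29 (SE, 95% interval -1.26 to 0.075), opposite in sign to 1451457_at. The remaining probe set, 1424709_at, was dim (mean 5.26) and gave -0.063. With all 3 averaged, Sc5d was at -0.10. Over the 6 arrays 1451457_at was brighter than 1434520_at (mean 8.76 against 8.68), but in controls it was dimmer (8.59 against 8.97). The reading of Sc5d therefore rests on the choice of probe set. The positions of these probe sets on the transcript were not used here, so which form of the transcript each reads was not tested.

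**Figure D3:**
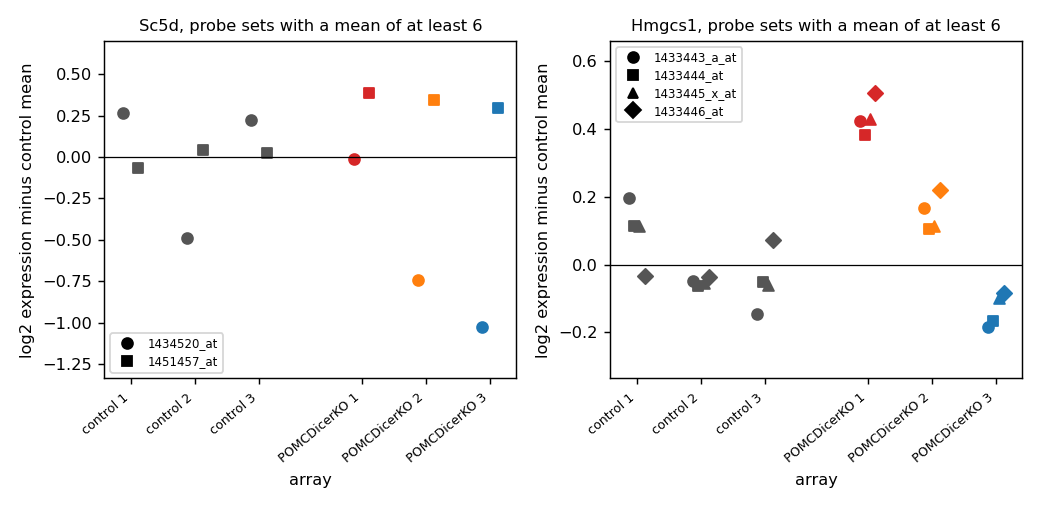
Log2 expression relative to the control mean (y axis, log2 units) on each array (x axis) for every probe set with a mean of at least 6, for Sc5d (left) and Hmgcs1 (right). The Sc5d probe sets part on POMCDicerKO arrays, 1451457_at lying above 0 and 1434520_at at or below it, while the 4 Hmgcs1 probe sets move together.

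Most synthesis genes were spread out among the POMCDicerKO arrays in the same order. This pattern was noticed in the data and is described without a test. For 15 of the 17 genes array 1 was the highest and array 3 the lowest of the 3, against 19.7% of all genes, and array 1 read above array 3 for all 17. The exceptions were Lss and Hsd17b7, where array 2 was the lowest. Array 1 was above every control for 16 of 17 genes, all but Pmvk, against 22.3% of all genes, and array 3 was below every control for 12 of 17, against 29.7%. Most synthesis genes are bright, and over genes with a mean of at least 8 these 3 shares were 25.9%, 24.8% and 39.1%. The difference between arrays 1 and 3 had a median of 0.39 over the 17 genes. It ran from 0.089 for Sc5d, read at 1451457_at, to 0.92 for Idi1, with 0.83 for Msmo1, 0.61 for Hmgcs1 and 0.57 for Cyp51. At the Sc5d probe set 1434520_at the difference was 1.01, so the small value rests on the choice of probe set. Over all genes the median difference was -0.0001, and over the 7269 genes with a mean of at least 8 it was 0.039. The same placing was seen at 24 of 29 synthesis probe sets with a mean of at least 6, against 22.4% of all such probe sets.

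The controls of most synthesis genes were closer together. The SD of POMCDicerKO was above that of control for 14 of 17 synthesis genes, against 52.3% of all genes, with a median SD of 0.20 in POMCDicerKO and 0.092 in controls, where over all genes the medians were 0.091 and 0.085. The exceptions were Pmvk, Hsd17b7 and Sc5d at 1451457_at. A wider spread in POMCDicerKO was also seen for 10 of 13 members outside synthesis, 11 of 11 myelin genes and 6 of 6 genes of the oligodendrocyte precursor list. Other lists described below varied. It was seen for 8 of 12 fatty acid genes and 5 of 7 astrocyte genes, but for 1 of 8 isoprenoid genes and 3 of 8 SREBP processing genes. For vessel genes it was 1 of 4, for microglia genes 0 of 7 and for meningeal genes 0 of 8. Relative to the control mean, the synthesis genes had a median of 0.31, 0.062 and -0.18 on POMCDicerKO arrays 1, 2 and 3, and of 0.053, -0.061 and -0.043 on the controls. Bright genes read somewhat lower on array 3, where the median of genes averaging 8 or more was -0.038, against -0.0033 on array 1. The Gapdh 3' minus 5' signal was -0.011 on arrays 1 and 3 and -0.022 on array 2. The actin signal was 1.19, 1.16 and 1.12 on arrays 1, 2 and 3, the order of the synthesis genes. On controls 1, 2 and 3 it was 1.23, 1.31 and 1.17, not the order of their synthesis medians. Control 2 had the highest actin signal and the lowest synthesis median of the controls, and controls 1 and 2 exceeded POMCDicerKO array 1 in actin signal. The part of RNA quality in the pattern was not tested.

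The difference between the groups therefore depended on which POMCDicerKO arrays were counted. Without POMCDicerKO replicate 1, 7 of 17 synthesis genes read higher and 10 lower, with a median of -0.035. In that fit Idi1 was at -0.047, Msmo1 at -0.050, Fdps at 0.025, Cyp51 at 0.0065 and Lss at 0.0064. Without replicate 3 all 17 read higher, with a median of 0.16, and Idi1 was at 0.42, Msmo1 at 0.37, Fdps at 0.29 and Cyp51 at 0.29. In that fit 5 of the 30 members had an unadjusted p under 0.05 (these 4 and Sc5d), against 3.36% of all genes, and each had an adjusted p of 1. Without replicate 3 the groups did not overlap for 9 members, against 18.3% of all genes. They were Idi1, Fdps, Sqle, Cyp51, Msmo1, Nsdhl and Sc5d of the synthesis genes, the transporter Npc1, and Srebf1, which was lower. Array 1 was the highest of POMCDicerKO for all 17 synthesis genes, so leaving it out had to lower all their means. Array 3 was the lowest of POMCDicerKO for most synthesis genes, so leaving it out had to raise the means of those genes. The counts of both fits follow in part from the values that set arrays 1 and 3 apart. They are no separate support for a difference between the groups, or for its absence. Sc5d at 1451457_at was at 0.32 without replicate 1 and 0.37 without replicate 3.

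The regulators of the pathway read close to control, with 1 of 6 measured members higher and a median of -0.020. Srebf1, whose products drive fatty acid and cholesterol genes, read 9.32, 9.49 and 9.40 in controls and 9.27, 9.21 and 9.51 in POMCDicerKO. Arrays 1 and 2 were below all controls and array 3 above all of them, the reverse of Idi1, and the log2 fold change of Srebf1 was -0.072 ± 0.095 (SE). Srebf2, the main driver of cholesterol synthesis, read 7.59, 7.76 and 7.50 in controls and 7.65, 7.64 and 7.38 in POMCDicerKO, where array 3 was the lowest of the 6. Its log2 fold change was -0.061 ± 0.10 (SE), and its second probe set, 1426744_at, gave -0.067. That probe set read 7.0779, 7.0995 and 7.0577 in controls and 7.2163, 7.105 and 6.7122 in POMCDicerKO. There arrays 1 and 2 lay above all controls and array 3 below all of them, as for Idi1 at its brightest probe set. At both Srebf2 probe sets array 1 was the highest and array 3 the lowest of POMCDicerKO. The escort protein Scap was at -0.021 ± 0.060 (SE) and had an SD of 0.026 in each group.

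Insig1, which holds Scap in the endoplasmic reticulum and is itself an SREBP target, read 8.73, 8.50 and 8.84 in controls and 8.91, 8.58 and 8.72 in POMCDicerKO. Its highest value was on array 1 but its lowest POMCDicerKO value was on array 2, and its log2 fold change was 0.046 ± 0.12 (SE). Insig2, its paralogue, was at -0.018, with 0.093 and -0.0089 at its other probe sets. The LXR receptor gene Nr1h3 was the 1 member under a mean of 6, where signal over background is small, and stood at -0.017.

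Transport genes had a median of 0.070, with 4 of 6 higher. Npc2, the soluble lysosomal protein that hands cholesterol to Npc1, differed most. Its probe set 1416901_at read 10.16, 10.09 and 10.09 in controls and 10.29, 10.18 and 10.23 in POMCDicerKO, without overlap between the groups. The log2 fold change of that probe set was 0.12 ± 0.064 (SE, exact permutation p = 0.1). At the brighter 1448513_a_at Npc2 was at 0.11 ± 0.072 (SE), and there the groups overlapped (10.54, 10.44 and 10.58 against 10.70, 10.55 and 10.65). The faintest Npc2 probe set with a mean of at least 6, 1455768_at, gave -0.036.

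Npc1, the membrane exporter of lysosomal cholesterol, and Stard4, a cytosolic sterol carrier, were at 0.073 each. Npc1 read 7.88, 7.84 and 7.75 in controls and 8.06, 7.88 and 7.75 in POMCDicerKO, and Stard4 read 7.778, 7.881 and 7.761 and then 8.002, 7.826 and 7.810. For both, array 1 was the highest of all 6 arrays and array 3 the lowest of POMCDicerKO, as for the synthesis genes. Abca1, the exporter that loads cholesterol onto apolipoproteins, ran the other way, with 10.69, 10.75 and 10.97 in controls and 10.70, 10.82 and 11.09 in POMCDicerKO. Its log2 fold change was 0.068 ± 0.12 (SE), and array 3 exceeded array 1 by 0.39. Abcg1, the other LXR-driven exporter, was at -0.011 ± 0.072 (SE).

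Apoe, which encodes the main apolipoprotein of the brain, differed least of the 30 genes. It read 13.09, 13.18 and 13.21 in controls and 13.16, 13.11 and 13.20 in POMCDicerKO. Its log2 fold change was -0.0014 with a 95% interval from -0.16 to 0.15. Cyp46a1, the neuronal hydroxylase through which cholesterol leaves the brain, read 9.41, 9.40 and 9.32 in controls and 9.43, 9.31 and 9.35 in POMCDicerKO. Its log2 fold change was -0.016 with a 95% interval from -0.17 to 0.14. Both intervals leave room for small changes in either direction.

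**Figure D4:**
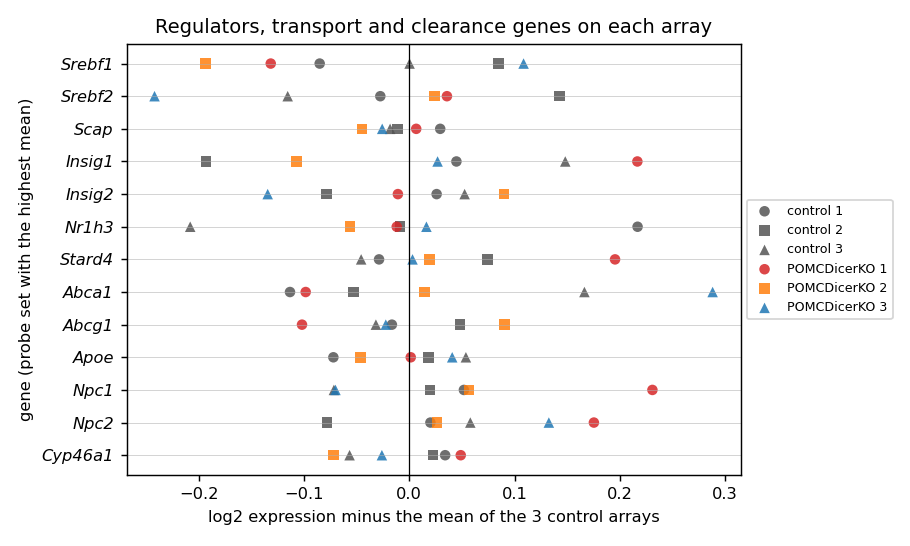
Log2 expression of the 13 regulators, transporters and clearance genes on each array, relative to the mean of the 3 control arrays (x axis, log2 units), with a marker for each array. The groups overlap for every gene shown, and the placing of POMCDicerKO arrays 1 and 3 changes from gene to gene, with array 3 highest for Srebf1 and Abca1 and lowest for Srebf2.

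Among 14 genes with more than 1 probe set of a mean of at least 6, all probe sets gave the same sign for 8 genes (Cyp51, Fdft1, Hmgcs1, Hsd17b7, Idi1, Lss, Srebf2 and Stard4). The signs were mixed for Abcg1, Insig2, Mvd, Mvk, Npc2 and Sc5d. Of these 6, Sc5d had the widest range, from -0.59 to 0.34, and the others stayed between -0.036 and 0.12.

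Other genes of sterol and lipid metabolism were taken from lists by function. Of 12 measured fatty acid genes driven by SREBP, 7 read higher and 5 lower, with a median of 0.0089 and 0 at an unadjusted p under 0.05. The malic enzyme Me1 (0.11 ± 0.070 (SE)) and the elongase Elovl6 (0.13 ± 0.14 (SE)) had the smallest p-values. For 8 of the 12, array 1 was the highest and array 3 the lowest of POMCDicerKO, and the list had a median of 0.11, -0.015 and -0.12 on arrays 1, 2 and 3, beside 0.31, 0.062 and -0.18 for the synthesis genes. The difference between the lists was not tested. Elovl6 read 10.40, 10.17 and 9.82 on those arrays and 10.00, 10.11 and 9.88 in controls. The isoprenoid branches, which take farnesyl diphosphate away from sterols, had 4 of 8 measured genes higher and a median of 0.0095. Fntb, a subunit of farnesyltransferase, was at -0.15 (unadjusted p = 0.0466 by limma, adjusted p = 1) without overlap between the groups, and Ggps1 at 0.23 ± 0.20 (SE).

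Genes that process SREBP or degrade sterol-regulated proteins had 2 of 8 higher and a median of -0.069. Mylip, a ubiquitin ligase for lipoprotein receptors, was at -0.21 (unadjusted p = 0.037 by limma, adjusted p = 1), reading 9.21, 8.95 and 9.13 in controls and 8.95, 8.82 and 8.87 in POMCDicerKO. Its groups overlapped, by less than the rounding of these values. The Golgi protease Mbtps1 was at -0.10. Of 15 lipoprotein and sterol trafficking genes 8 read higher, with a median of 0.0019. Gramd1c, a sterol carrier between membranes, was at -0.17 and the receptor Vldlr at 0.21. The 3 oxysterol enzymes had a median of 0.0012. Cyp27a1 was at -0.16 without overlap, and Ch25h, at 0.0025, was dim. In these 5 lists 0 genes passed the test over all probe sets.

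**Figure D5:**
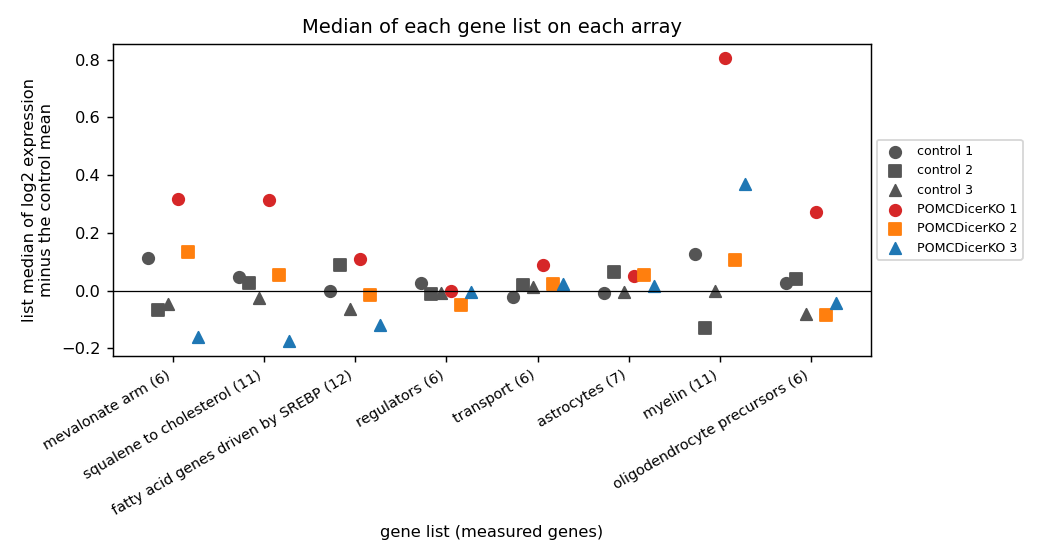
Median of each gene list on each array (y axis, log2 expression minus the control mean of each gene), with the number of measured genes in brackets and a marker for each array. In the 2 synthesis lists POMCDicerKO array 3 is the lowest array, and in the myelin list it stands at 0.37, above all controls and array 2.

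Marker lists of the cells that make and use cholesterol are given beside these values, since in bulk tissue fewer cells of a type and less RNA per cell cannot be told apart. All 11 measured myelin genes read higher on average in POMCDicerKO, with medians of 0.81, 0.11 and 0.37 on its arrays 1, 2 and 3 and from -0.13 to 0.13 in controls. Array 1 was the highest for myelin and for synthesis genes alike. Array 3 exceeded every control for all 11 myelin genes and was below every control for 12 of 17 synthesis genes. Array 1 was the highest and array 3 the lowest of POMCDicerKO for 1 of 11 myelin genes. The list of oligodendrocyte precursor genes (Pdgfra, Cspg4, Olig1, Olig2, Sox10 and Gpr17) had medians of 0.27, -0.084 and -0.042 on the 3 arrays and from -0.081 to 0.040 in controls. Olig1, Olig2 and Sox10 are not confined to precursors, as mature oligodendrocytes express them too. On array 1 Olig1 and Sox10 read 11.64 and 9.28, against control means of 11.20 and 8.89. Pdgfra and Cspg4 read 10.31 and 7.29 there, against control means of 10.31 and 7.20. For 1 of these 6 genes, Gpr17, array 1 was the highest and array 3 the lowest of POMCDicerKO. Gpr17 read 11.06, 10.74 and 10.19 there and 10.84, 10.79 and 10.40 in controls. The 7 astrocyte genes had medians of 0.050, 0.053 and 0.018 on POMCDicerKO arrays and from -0.0076 to 0.064 in controls. Their means were 0.054, 0.038 and -0.099, and from -0.057 to 0.076 in controls. Array 1 read above array 3 for all 7 astrocyte genes, as for all 11 myelin genes, against 49.8% of all genes. For 2 of the 7, array 1 was the highest and array 3 the lowest of POMCDicerKO. Array 3 was below every control for 3 of the 7 and above every control for 1, against 29.7% and 24.8% of all genes. The 7 microglia genes, from a further cell type that makes Apoe, had medians of 0.16, 0.12 and 0.11, and from -0.17 to 0.13 in controls. The 4 neuron genes had medians of 0.10, -0.0006 and 0.053, and from -0.059 to 0.069 in controls, and the 4 vessel genes 0.18, 0.10 and 0.13, and from -0.062 to 0.094 in controls. The 3 choroid plexus genes stood at -0.22, -0.19 and -0.40, and from -0.12 to 0.096 in controls, and the arcuate markers at -0.72, -0.19 and -0.13, and from -0.25 to 0.34 in controls. Meningeal genes were also lowest on array 3, with array 1 the highest and array 3 the lowest of POMCDicerKO for 6 of 8. Without controls 1 and 2, which stood apart in those genes, the median of the synthesis genes was 0.094, with control 3 as the only control. The part of any of these cell types in the synthesis values was not tested.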

How the data were processed

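The values deposited by the authors are log2 signals, made with RMA and affy per the submitters' processing notes, whose versions the sources used here do not give. As a method, RMA corrects background, normalises arrays by quantiles and summarises probes, so a shift shared by most transcripts is removed. The values were used as deposited (0 unused sample columns), without 64 control spots. Annotation gave 1 symbol to 34945 probe sets, several to 932 and none to 9160, and 34741 probe sets were matched to RefSeq by Entrez ID (GRCm38.p6), which served only for names and promoters. Samples and replicate numbers came from titles. The groups were compared with limma 3.58.1 in R 4.3.3 (lmFit, eBayes), with Benjamini-Hochberg adjustment over 45037 probe sets, a threshold of 0.05 and 95% intervals. Exact permutation tests were two-sided. No list was tested as a set.

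Scripts were tested on simulated data. Values on every array were given for members with an unadjusted p under 0.05 or no overlap at a probe set with a mean of at least 6, and for the 2 largest differences of each role, and for further members chosen after their values were seen. From each related list up to 2 genes with the smallest p were named, at the probe set with the highest mean. Members and lists were chosen with earlier results of these data known. The design text calls the samples independent and says no more of their source, so p-values measure only the spread between these samples. Alternatives were array centring, quantile normalisation, a filter at a mean of 6, a trended robust prior, no moderation, array weights, a replicate block, the mean of all probe sets and leaving out each array. Leaving out controls 1 and 2 was added after seeing the data.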

Additional observations from a re-analysis of the deposited data

How the results depend on the processing

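No member passed the adjusted threshold under any alternative run. The count at an unadjusted p under 0.05 was 0 with each gene averaged over its probe sets, and 1 to 5 with single arrays left out. The count without overlap was 7 without controls 1 and 2, and 2 to 9 with single arrays left out, where fewer arrays make overlap rarer. Of these alternatives, shares over all genes were computed only without POMCDicerKO replicate 3, with 3.36% under that p and 18.3% without overlap. The other counts, among them the 7 with control 3 as the only control, have no such share. They cannot be read as a rise over the main comparison. The median of members outside synthesis was 0.020 with the mean of all probe sets and 0.021 without controls 1 and 2. With single arrays left out that median ran from -0.020 to 0.012. For all members the median ran from -0.021 without POMCDicerKO replicate 1 to 0.11 without replicate 3.

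Some signs turned. Centring gave -0.0003 for Mvk and -0.0010 for Tm7sf2, and quantile normalisation 0.0012 for Apoe. Array weights gave 0.014 for Dhcr7 and 0.0065 for Insig2. The mean of all probe sets gave -0.10 for Sc5d, 0.022 for Insig2 and 0.020 for Abcg1. Without controls 1 and 2 the values were 0.049 for Dhcr7, 0.055 for Srebf2, -0.10 for Insig1, 0.19 for Nr1h3, -0.098 for Abca1, 0.021 for Abcg1 and 0.040 for Cyp46a1. Apart from the averaged Sc5d probe sets, which oppose each other, the cause was not tested.

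With single arrays left out, Hmgcs1 ran from -0.0079 to 0.30, Mvk from -0.056 to 0.079, Mvd from -0.083 to 0.14, Idi1 from -0.047 to 0.42 and Fdft1 from -0.089 to 0.18. Sqle ran from -0.035 to 0.15, Tm7sf2 from -0.079 to 0.12, Msmo1 from -0.050 to 0.37, Nsdhl from -0.083 to 0.12 and Dhcr7 from -0.081 to 0.055. Among the others Srebf2 ran from -0.12 to 0.030, Insig1 from -0.051 to 0.12, Insig2 from -0.073 to 0.040 and Nr1h3 from -0.12 to 0.091. Abca1 ran from -0.042 to 0.15, Abcg1 from -0.062 to 0.034, Apoe from -0.038 to 0.025, Npc1 from -0.0067 to 0.14 and Cyp46a1 from -0.049 to 0.012.

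With the replicate number as a block, 1 member had an unadjusted p under 0.05. Each number has 1 array per group, so a block cannot change a fold change, and the median of the synthesis genes stayed at 0.086 by design. Deviations from the group means correlated at 0.128, 0.0787 and 0.12 for samples of the same number, which is not over 0.1 for each pair, so the numbers were not taken as pairs. Every control correlated best with its own number, a hint of pairing from the data and not from the design. Signal near background limits Nr1h3 and the 15 member probe sets with a mean under 6.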
